A study of Homo sapiens with 22 samples.

Results

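Chromosome 19 carries 246 protein-coding zinc finger genes named ZNF and a number, out of 19974 protein-coding genes on chromosomes 1 to 22 and X. They were taken from the RefSeq annotation of human assembly GRCh38 patch 14 by name and position alone, with no measured value. Another 263 genes with such names lie on other chromosomes, and 1205 other protein-coding genes lie on chromosome 19. Accessible DNA was mapped by ATAC-seq, a cutting assay with the transposase Tn5, in 8 libraries of HFFc6 and 2 of H1. HFFc6 cells are human foreskin fibroblasts, immortalised with telomerase and subcloned, and H1 cells are human embryonic stem cells, and no treatment is named for either. CTCF, a zinc finger protein of loop anchors, was mapped in 2 HFFc6 libraries by Cut&Tag, where Tn5 is brought to the protein by an antibody. A further CTCF list carries hESC in its name, is described by no sample label and is called the hESC-named list, and its cells and assay are unknown here. The SMC1, H3K4me3 and H3K27ac libraries were not analysed here.

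Each list is a single deposited call with no value per library, so the spread between libraries could not be measured and no difference between lists or gene sets was tested. Shares carry 95% Wilson intervals, which cover counting error only, and neighbouring genes are not independent. The ATAC lists hold 155746 regions for HFFc6 and 189982 for H1, the CTCF lists 82297 for HFFc6 and 104785 under the hESC name, and their read depth is unknown. Median widths were 707, 301, 696 and 496 bp in the same order, and a −log10 q of at least 10 was reached by 85.2, 48.4, 69.7 and 60.5% of regions. A region present in one list and absent from another can therefore reflect how the lists were made as well as the cells, and these cannot be told apart. Of 5 embryonic stem cell marker genes, LIN28A and PRDM14 were accessible at an end in H1 alone, NANOG and SOX2 in both lines and POU5F1 in neither. Of 5 fibroblast markers, COL1A1, COL1A2, FN1 and TWIST2 were so in both lines and THY1 in neither. The defining markers thus separated the lines at only 2 of the 10 genes by this measure. Farther inside these genes, HFFc6 and H1 ATAC regions numbered 21 and 0 at FN1, 7 and 0 at COL1A2, and 2 and 0 at COL1A1. They numbered 11 and 4 at TWIST2 and 2 and 3 at THY1. Of the stem cell markers, LIN28A had 1 and 3, PRDM14 0 and 1, NANOG 1 and 0, and SOX2 and POU5F1 0 in both.

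Most zinc finger genes of chromosome 19 belong to the KRAB class. Such a protein binds DNA through a row of C2H2 fingers and recruits the corepressor TRIM28 (KAP1) through its KRAB domain, and TRIM28 brings the histone methyltransferase SETDB1, which lays down H3K9 trimethylation. Many of these proteins bind retrotransposons, and the genes arose by repeated duplication in tandem, so neighbours are close relatives. The bodies of these genes, above all the exons that encode the fingers, are known as sites of H3K9 trimethylation, while their promoters are mostly CpG-rich. Lengths ranged from 2469 to 487995 bp with a median of 23.2 kb, against 24.2 kb for all protein-coding genes. With neighbours joined at gaps of up to 500 kb, 232 of the 246 genes fell into 10 groups of at least 5 genes, numbered here along the chromosome. The largest were group 10 near the end of the long arm with 43 genes in 1.3 Mb (chr19:57191500-58489533), group 8 with 39 genes in 2.01 Mb and group 4, next to the centromere, with 37 genes in 4.46 Mb (chr19:19668153-24129968).

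Promoter sequences from RefSeq (GRCh38 patch 14) were at hand for 216 of the 246 genes. The first set shown is from neighbours of group 2 whose promoters share a CRE word and a YY1 word but differ in accessibility. Each sequence runs 5′ to 3′ from 250 bases before the transcription start to 30 bases after it, and capitals mark the words TGACGTCA (CRE), AAGATGGC (YY1), GGGCGG (SP and KLF factors) and a CTCF core, each on either strand. The CTCF core is AGGGGGC in its first form, AGGTGGC in the second, AGAGGGC in the third and AGATGGC in the last, which lies within the YY1 word. Capitals also mark the longest run that all printed promoters of a set share, found after the sequences had been seen. Here it is AGCGGAAGTGACGTCAG, 17 bases that include the CRE. The genes are ZNF121 (minus strand, chr19:9584475-9584754), ZNF561 (minus strand, chr19:9621203-9621482) and ZNF562 (minus strand, chr19:9675071-9675350).
ZNF121: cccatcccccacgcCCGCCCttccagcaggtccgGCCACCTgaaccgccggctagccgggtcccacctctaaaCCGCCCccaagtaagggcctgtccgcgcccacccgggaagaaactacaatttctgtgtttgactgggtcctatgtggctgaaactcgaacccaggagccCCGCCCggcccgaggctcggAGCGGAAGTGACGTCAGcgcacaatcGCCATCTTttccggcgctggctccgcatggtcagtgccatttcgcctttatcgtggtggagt
ZNF561: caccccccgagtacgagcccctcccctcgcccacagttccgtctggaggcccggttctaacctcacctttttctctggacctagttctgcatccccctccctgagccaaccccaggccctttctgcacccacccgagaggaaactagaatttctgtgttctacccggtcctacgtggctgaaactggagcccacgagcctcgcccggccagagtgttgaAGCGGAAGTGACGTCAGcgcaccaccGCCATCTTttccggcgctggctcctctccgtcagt
ZNF562: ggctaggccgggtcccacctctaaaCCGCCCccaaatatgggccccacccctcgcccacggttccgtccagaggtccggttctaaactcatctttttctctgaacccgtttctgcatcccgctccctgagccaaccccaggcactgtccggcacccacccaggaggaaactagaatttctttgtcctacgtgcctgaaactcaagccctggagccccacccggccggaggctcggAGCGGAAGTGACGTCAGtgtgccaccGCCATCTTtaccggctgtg
ZNF561 and ZNF562 were identical at 70.3% of aligned positions, ZNF121 and ZNF561 at 64.9%, and ZNF121 and ZNF562 at 54.4%. ATAC regions of both lines covered the promoters of ZNF121 and ZNF561, but only the HFFc6 list had one at ZNF562.

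The second set is from group 4 and shows how similar promoters fell into every combination but H1 alone. The longest runs shared by all 5 have 10 bases: GTCCAATCAG, which holds a CCAAT box, GGCTTCCGGG, which holds an inverted ETS core, and CTTTGTCTCT. ZNF43 (minus strand, chr19:21836153-21836432) was covered in both lines, ZNF257 (plus strand, chr19:22052234-22052513) and ZNF726 (plus strand, chr19:23914636-23914915) in HFFc6 alone, and ZNF208 (minus strand, chr19:22010914-22011193) and ZNF492 (plus strand, chr19:22634074-22634353) in neither.
ZNF43: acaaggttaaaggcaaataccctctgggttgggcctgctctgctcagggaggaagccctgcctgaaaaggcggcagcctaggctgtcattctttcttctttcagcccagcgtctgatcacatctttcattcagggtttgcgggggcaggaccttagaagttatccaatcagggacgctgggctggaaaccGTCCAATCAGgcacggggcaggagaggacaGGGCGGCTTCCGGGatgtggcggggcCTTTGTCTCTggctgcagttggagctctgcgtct
ZNF257: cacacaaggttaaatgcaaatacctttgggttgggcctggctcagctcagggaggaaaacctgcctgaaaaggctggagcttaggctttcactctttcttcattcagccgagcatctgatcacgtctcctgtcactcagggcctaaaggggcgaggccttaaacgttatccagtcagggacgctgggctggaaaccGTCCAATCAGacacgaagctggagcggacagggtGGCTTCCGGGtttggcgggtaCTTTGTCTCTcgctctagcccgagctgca
ZNF726: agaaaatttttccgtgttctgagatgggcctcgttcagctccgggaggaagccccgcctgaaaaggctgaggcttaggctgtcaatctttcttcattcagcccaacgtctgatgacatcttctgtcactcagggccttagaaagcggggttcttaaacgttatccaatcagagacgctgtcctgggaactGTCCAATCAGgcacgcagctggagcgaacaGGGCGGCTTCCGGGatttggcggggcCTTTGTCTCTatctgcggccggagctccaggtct
ZNF208: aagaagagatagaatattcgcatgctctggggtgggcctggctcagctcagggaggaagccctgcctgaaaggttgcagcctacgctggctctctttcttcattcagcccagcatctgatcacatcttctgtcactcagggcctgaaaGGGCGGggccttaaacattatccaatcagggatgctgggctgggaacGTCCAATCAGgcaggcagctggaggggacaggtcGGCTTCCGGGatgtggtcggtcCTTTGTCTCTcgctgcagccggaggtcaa
ZNF492: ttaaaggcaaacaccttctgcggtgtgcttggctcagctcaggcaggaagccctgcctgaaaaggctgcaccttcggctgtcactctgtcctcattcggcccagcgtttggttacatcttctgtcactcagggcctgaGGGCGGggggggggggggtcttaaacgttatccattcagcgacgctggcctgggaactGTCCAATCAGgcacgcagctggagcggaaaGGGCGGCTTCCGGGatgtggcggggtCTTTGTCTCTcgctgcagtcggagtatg
Any pair of these 5 was identical at 76.6 to 81.3% of aligned positions, and ZNF208 and ZNF257, of different classes, were the closest pair. The treatment of reads that match several such copies is not stated.

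The third set is from group 10 and holds promoters covered by ATAC in H1 alone. The longest run shared by these 3 is AACTACATTACC, and ZNF587B also holds a CTCF core. The genes are ZNF154 (minus strand, chr19:57709175-57709454), ZNF587B (plus strand, chr19:57830049-57830328) and ZNF418 (minus strand, chr19:57935373-57935652).
ZNF154: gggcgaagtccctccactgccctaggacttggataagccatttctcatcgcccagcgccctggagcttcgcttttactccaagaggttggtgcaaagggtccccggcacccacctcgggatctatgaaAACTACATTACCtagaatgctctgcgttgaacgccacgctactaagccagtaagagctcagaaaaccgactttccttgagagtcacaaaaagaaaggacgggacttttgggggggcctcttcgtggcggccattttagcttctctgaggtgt
ZNF587B: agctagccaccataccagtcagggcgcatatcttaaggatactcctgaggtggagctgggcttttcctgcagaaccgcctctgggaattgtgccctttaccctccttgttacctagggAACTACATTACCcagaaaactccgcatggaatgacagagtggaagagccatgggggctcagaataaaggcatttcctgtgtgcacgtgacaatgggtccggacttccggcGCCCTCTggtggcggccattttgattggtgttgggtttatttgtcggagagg
ZNF418: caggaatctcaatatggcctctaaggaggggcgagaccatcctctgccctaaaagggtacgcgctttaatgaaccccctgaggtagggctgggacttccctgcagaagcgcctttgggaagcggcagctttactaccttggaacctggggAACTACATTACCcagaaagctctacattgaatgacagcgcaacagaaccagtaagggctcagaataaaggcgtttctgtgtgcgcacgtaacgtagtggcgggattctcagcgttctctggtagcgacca
These 3 were identical at 53.4 to 60.4% of aligned positions.

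The first comparison asked whether the ends of these genes were accessible in both lines. An ATAC region lay within 1 kb of an end in both lists for 198 of 246 genes (80.5%, interval 75.1 to 85), against 70.5% of all protein-coding genes. It was in the HFFc6 list alone for 13 genes (5.28%; background 5.55%), in the H1 list alone for 10 (4.07%; background 8.29%) and in neither for 25 (10.2%; background 15.7%). Zinc finger genes on other chromosomes stood at 85.2% (80.4 to 89) for both lists, so their interval overlaps that of the chromosome 19 genes. The other genes of chromosome 19 stood at 64.6% (61.9 to 67.3), below both. Without the 63 genes that overlap another gene, 8 of the remaining 183 were in HFFc6 alone, a lower count out of fewer genes. The count in H1 alone was 6 with 2 kb at each end.

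**Figure D1:**
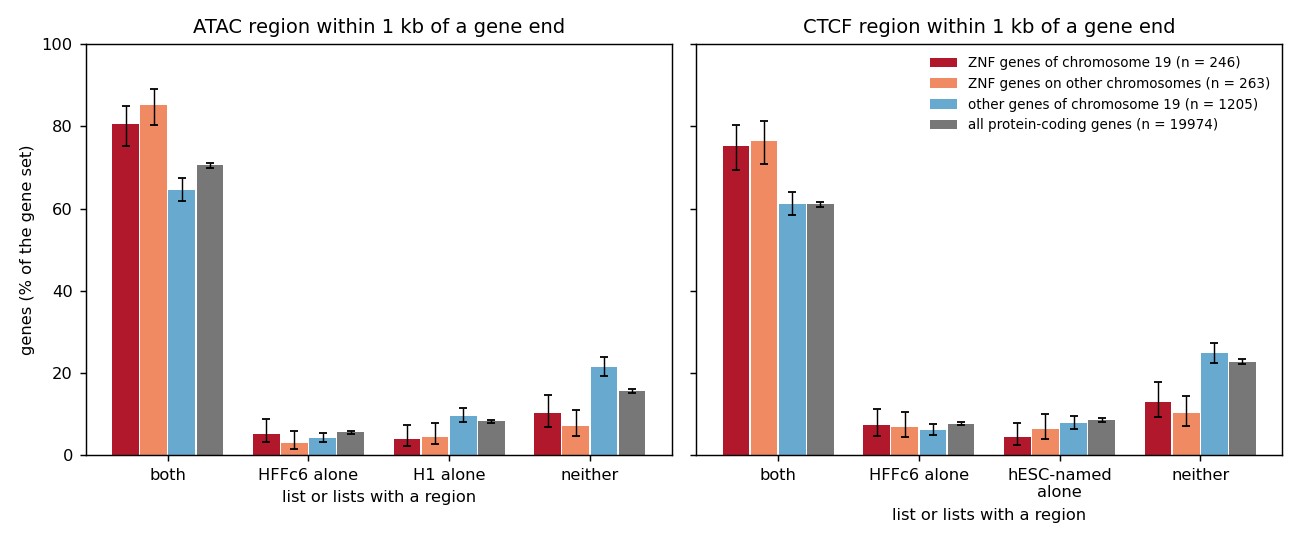
Percentage of genes with a region within 1 kb of either end in both lists, in one list alone or in neither, for ATAC (left) and CTCF (right). Bars are 4 gene sets and error bars are 95% Wilson intervals. ZNF genes of chromosome 19 stand at 80.5% for ATAC and 75.2% for CTCF in both lists, above the 70.5 and 61% of all protein-coding genes.

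The end regions were strong within their lists. Fold enrichment is the authors' ratio of signal over background for each region, and is compared only within a list. At the ends of the 246 genes the median region had a fold of 16.1 in the HFFc6 ATAC list, against 9.95 at the ends of all protein-coding genes. In the H1 ATAC list the medians were 13 and 7.96, in the HFFc6 CTCF list 9.5 and 8.11, and in the hESC-named list 10.3 and 7.33. At the ends of zinc finger genes on other chromosomes the medians were 13.8, 10.5, 9.5 and 7.66 in the same order of lists. The HFFc6 CTCF median was thus the same in the 2 zinc finger sets. Taking the highest region of each gene, HFFc6 ATAC values ran from 2.09 to 23.3 over 211 genes. ZNF549, ZNF586, ZNF134 and ZNF530 of group 10 and ZNF221 of group 7 were highest, at 23.3, 21.3, 20.9, 20.7 and 20.8. H1 ATAC values ran from 2.76 to 24.6 over 208 genes, led by ZNF175 (24.6), ZNF155 (24.3), ZNF773 (23.8), ZNF714 (22.9) and ZNF284 (22.7). The last 4 of these lay at 17.3 to 19.4 in the HFFc6 list, and ZNF175, which encodes OTK18, a repressor of HIV transcription, at 9.98.

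**Figure D2:**
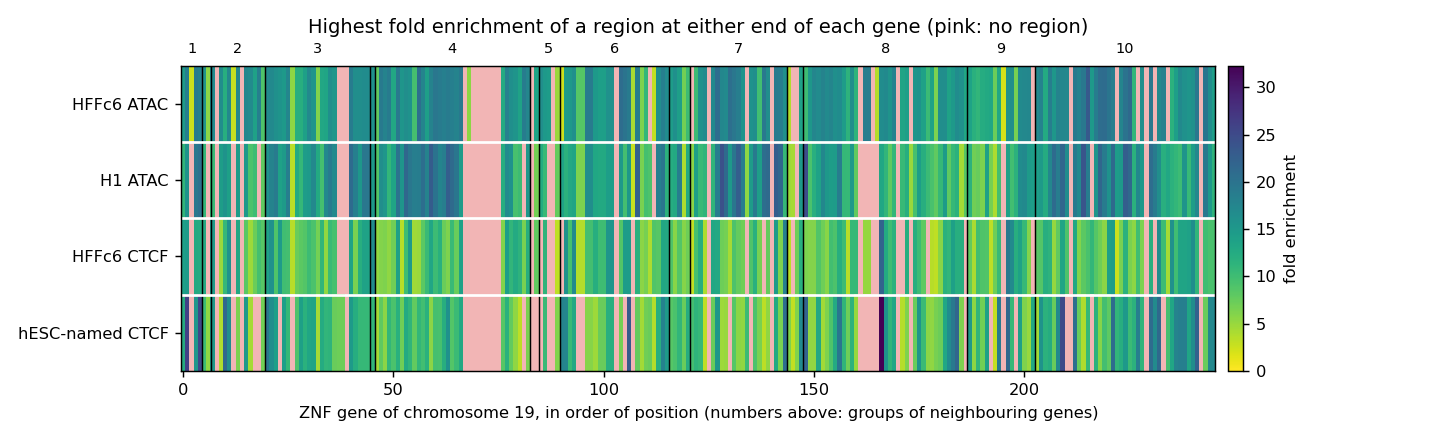
Highest fold enrichment of a region within 1 kb of either end, for each of the 246 ZNF genes of chromosome 19 (columns, in order of position) in the 4 lists (rows). Pink marks no region, black lines bound the 10 groups, and colours are to be compared within a row. A run of pink across all lists stands in group 4, and the darkest tile of the hESC-named row is ZNF808 at 32.3.

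Genes with an ATAC end region in HFFc6 alone were of 2 kinds. ZNF726, ZNF528, ZNF880 and ZNF562 had strong regions, with folds of 18.7, 18.6, 18.6 and 18.4. ZNF528 and ZNF880 share 1 region (chr19:52397256-52398604), which covers the ZNF528 promoter and the far end of ZNF880. ZNF550 and ZNF599 followed at 14.8 and 14.5. ZNF358 and ZNF257 had 5.59 and 5.51, and ZNF578, ZNF540, ZNF177, ZNF556 and ZNF444 had 2.09 to 3.67. HFFc6 CTCF lay at the ends of ZNF562, ZNF726, ZNF528, ZNF880, ZNF540 and ZNF550, and of these ZNF540 alone also had hESC-named CTCF there.

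Because a listed promoter can lie away from the annotated end of its gene, the same genes were scored by their promoter windows, 250 bases before to 50 after each RefSeq start, which was done after the end classes had been seen. ZNF177, ZNF562, ZNF257, ZNF726, ZNF528 and ZNF578 stayed in HFFc6 alone. The single windows of ZNF358, ZNF599, ZNF880, ZNF444 and ZNF550, and 1 of the 2 windows of ZNF540, were covered in both lists, and the window of ZNF556 was covered in neither. ZNF560, which had no end region, had a window covered in HFFc6 alone, as did ZNF581. The nearest H1 ATAC region to an end of ZNF726 lay 88634 bp away and that of ZNF257 200027 bp away, but that of ZNF578 was only 1386 bp away.

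Of the 10 H1-alone genes, 4 lay in group 10, near the end of the long arm. ZNF418 had a fold of 18.8, ZNF587B 17.4, ZNF154 14.4 and ZNF135 12.9, and these are the 4, while ZNF835 at the end of group 9 had 14.3. ZNF154 is known for promoter methylation in many tumours. ZNF793 of group 6 had 9.01, and ZNF575, ZNF225, ZNF320 and ZNF541 had 4.3 to 5.67. By promoter windows the first 6 remained in H1 alone, joined by ZNF814, while ZNF575, ZNF225 and ZNF320 were in both lists and ZNF541 in neither. So 5 of the 7 genes whose promoter windows were covered in H1 alone lay in group 10. That group holds 43 of the 246 genes, while the 7 come from the 216 genes with a promoter window.

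CTCF did not follow the same pattern at these genes. The HFFc6 CTCF list had a region at an end of ZNF154, ZNF587B, ZNF135 and ZNF793 although the HFFc6 ATAC list had none there. Their folds were 2.55, 9.86, 4.4 and 3.94 in the HFFc6 CTCF list and 11, 18.5, 9.66 and 7.33 in the hESC-named list. ZNF418 and ZNF835 had hESC-named CTCF alone, with folds of 16.7 and 12.7. The nearest HFFc6 ATAC region to an end of ZNF154 lay 13808 bp away, and that of ZNF587B 3242 bp away.

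Of the 25 genes with no ATAC end region in either list, 9 had a promoter window covered in both, among them ZNF558, ZNF563, ZNF442, ZNF799 and ZNF749. For another 9, among them ZNF30 and ZNF600, no promoter window was at hand. ZNF208, ZNF492, ZNF723, ZNF404 and ZNF534 were covered in neither list by both measures. ZNF534 is a KRAB zinc finger gene associated with the HERV-H family of endogenous retroviruses.

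In all, 22 of the 246 genes (8.94%) had no end region in any of the 4 lists, against 14.3% of all protein-coding genes. For 10 of them (4.07%; background 8.18%) the rest of the body was empty too. These were ZNF208, ZNF676, ZNF729, ZNF98, ZNF492, ZNF99, ZNF723, ZNF728, ZNF404 and ZNF534. The first 8 lie in one stretch of group 4, together with ZNF257, from 21939815 to 23003176 on chromosome 19. This 1.06 Mb held 2 HFFc6 ATAC regions, 0 H1 ATAC regions, 1 HFFc6 CTCF region and 3 hESC-named CTCF regions. Chromosome 19 as a whole held 56.3, 67.9, 53.4 and 61 regions per Mb in the same order. The stretch was bounded by genes picked for holding no region, so its low counts were partly fixed by that choice. One of the 2 HFFc6 ATAC regions is the ZNF257 promoter, with a fold of 5.51, and the other, at 3.48, overlaps a CTCF region in each CTCF list and no zinc finger gene. The nearest region to an end of ZNF98 in the H1 ATAC list was 538562 bp away.

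On both sides of that stretch lay genes accessible in both lines, but not all were, as ZNF726 beyond it had ATAC in HFFc6 alone. ZNF43, before it on the chromosome, had end folds of 19.3 in HFFc6 ATAC and 14.6 in H1 ATAC, and 13.8 and 12.8 in HFFc6 and hESC-named CTCF. ZNF91, which silences SVA retrotransposons, had 16.2, 15.8, 11.1 and 7.78 in the same order. ZNF93, which binds L1 elements, had 12.9, 13.4, 6.98 and 9.18, and ZNF254, the last gene of the group, had 17.5, 15.1, 12.1 and 6.48. Group 4 as a whole had 27 of 37 genes with ATAC ends in both lists, 2 in HFFc6 alone, 8 in neither and 0 in H1 alone.

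CTCF regions at the ends were nearly as frequent as ATAC regions. Both CTCF lists had one at 185 of 246 genes (75.2%, 69.4 to 80.2), against 61% of all protein-coding genes and 76.4% (70.9 to 81.2) of zinc finger genes elsewhere. HFFc6 alone had 18 genes (7.32%; background 7.72%), the hESC-named list alone 11 (4.47%; background 8.58%) and neither 32 (13%; background 22.7%). With regions of −log10 q of at least 10 only, the counts in one list alone were 35 for HFFc6 and 18 for the hESC-named list. All 4 lists had an end region at 178 genes (72.4%; background 59.1%). Only 3 genes with ATAC in both lines lacked CTCF in both lists at their ends, namely ZNF302, ZNF875 and ZNF331. Each of these 3 had a promoter window covered by CTCF in both lists, more than 1 kb from the annotated ends, so they are exceptions by the rule for ends only. ZNF114 had CTCF in both lists with no ATAC region at either end.

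ZNF808, a repressor of MER11 elements needed for pancreas development, had the highest CTCF fold in both lists, a fold of 22 for HFFc6 and of 32.3 for the hESC-named one. Its start region spans 971 bp in the HFFc6 list. ZNF582, ZNF180, ZNF333 and ZNF583 followed in HFFc6 at 19.3, 18.1, 16.9 and 16.9, and ZNF555, ZNF77, ZNF548 and ZNF383 in the hESC-named list at 26, 25.4, 25.1 and 23. ZNF274, which recruits SETDB1 to the 3′ exons of other zinc finger genes, had end folds of 9.92 and 17.8 in the CTCF lists and 14.1 and 10.9 in HFFc6 and H1 ATAC. ZNF471 and ZNF667, like ZNF582 often methylated in tumours, had ATAC in both lines, at 16.9 and 16.6 for ZNF471 and 6.59 and 11.5 for ZNF667. ZNF667 had HFFc6 CTCF with a fold of 12 and no hESC-named CTCF. ZNF649, a KRAB gene, had 17.5 and 11.9 in ATAC and 6.03 and 5.3 in CTCF.

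Most end regions were found in the other list of their pair. Of 215 HFFc6 ATAC end regions, 91.2% (86.6 to 94.3) were found in the H1 list, against 79.8% at all protein-coding genes. Of 240 H1 regions, 92.5% (88.5 to 95.2) were found in the HFFc6 list, against 77.1%. The shares were 90% (85.1 to 93.5) of 201 HFFc6 CTCF regions and 89.5% (84.6 to 92.9) of 209 hESC-named CTCF regions, against 78.2 and 76.7%. A few regions served 2 genes at once: 11 of the HFFc6 ATAC and 10 of the H1 ATAC end regions lay at ends of 2 of these genes.

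CTCF and open chromatin coincided at these ends. HFFc6 CTCF lay in 91.2% of the HFFc6 ATAC end regions, against 79.5% at all protein-coding genes, and hESC-named CTCF in 84.6% of the H1 ATAC end regions, against 70.2%. At zinc finger genes on other chromosomes these shares were 90 and 78.1%. In the other direction, all 20 end regions specific to the HFFc6 CTCF list overlapped HFFc6 ATAC, against 85.3% at all protein-coding genes, and 14 of them (70%, against 48.2%) also H1 ATAC. Of the 22 specific to the hESC-named list, 13 (59.1%, against 72.4%) overlapped H1 ATAC, 7 (31.8%, against 30.8%) HFFc6 ATAC and 7 (31.8%, against 23%) neither. Cut&Tag cuts with Tn5 as ATAC-seq does, and the part of this in the overlap was not tested.

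The regions sat at the start of the gene, not at its far end. Strand was known for 216 genes. The start end held an HFFc6 ATAC region in 86.1% of them (80.9 to 90.1; background 73.4%) and the far end in 7.87% (4.97 to 12.2; background 23%). For H1 ATAC these were 85.6% (background 76.7%) and 5.09% (background 19.7%). HFFc6 CTCF gave 83.3% (background 66.5%) and 4.17% (background 17.6%), and hESC-named CTCF 78.2% (background 66.6%) and 6.94% (background 16.7%). The start ends of zinc finger genes elsewhere held regions in 89.3, 89.7, 84.6 and 82.2% in the same order. These are somewhat above the shares here, so a high share at the start end is not particular to chromosome 19. The finger-coding exon of such genes is usually the last one, close to the far end. The far ends of zinc finger genes elsewhere held HFFc6 ATAC in 13.6% (9.6 to 18.8) and hESC-named CTCF in 10.7% (7.27 to 15.6), and these intervals overlap those here, the latter being 4.25 to 11.1. For H1 ATAC they stood at 13.6% (9.6 to 18.8) against 5.09% (2.87 to 8.89) here, and for HFFc6 CTCF at 12.1% (8.43 to 17.2) against 4.17% (2.21 to 7.73), with no overlap of the intervals.

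**Figure D3:**
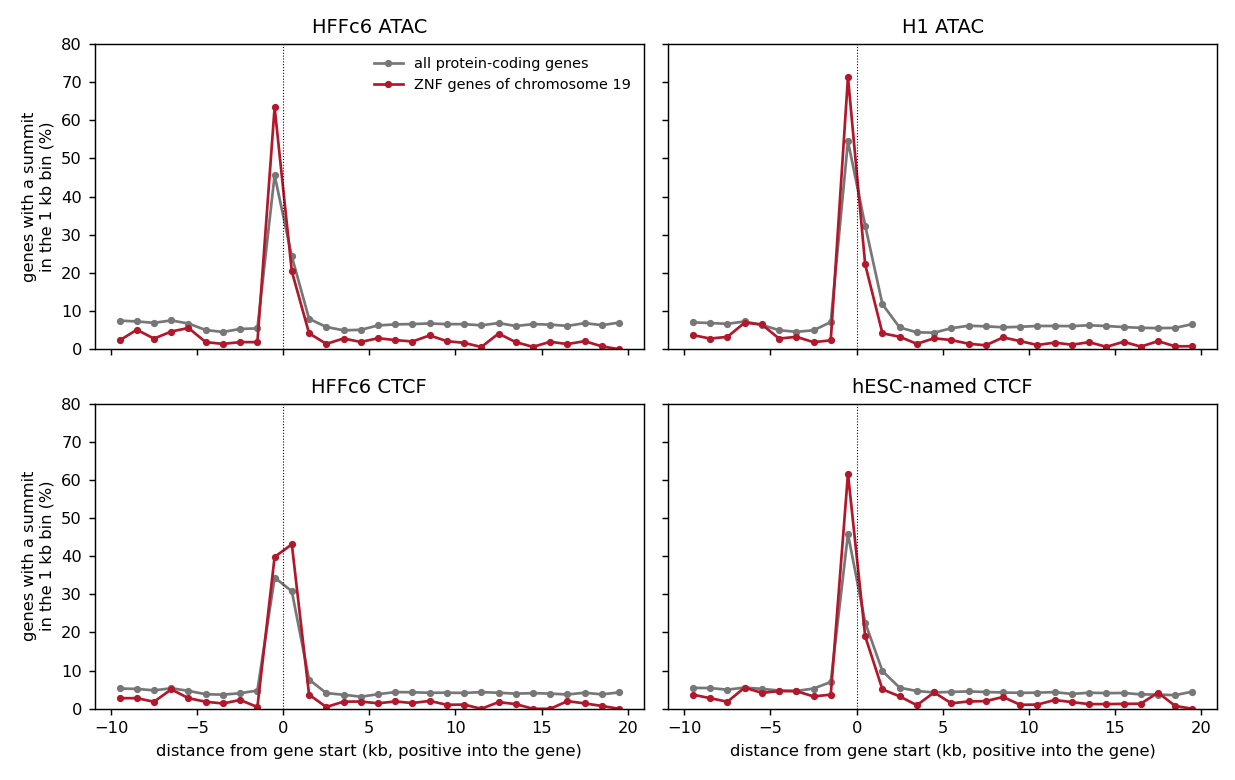
Percentage of genes with a region summit in each 1 kb bin by distance from the gene start, for the 216 ZNF genes of chromosome 19 with known strand and all protein-coding genes, in the 4 lists. Bins inside the gene count only genes that reach them. The H1 ATAC bin just before the start stands at 71.3% against 54.5%, and most bins deeper in the gene lie below the grey line.

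Summits were tightly placed. In the 1 kb before the start lay an H1 ATAC summit at 71.3% of the genes, an HFFc6 ATAC summit at 63.4% and a hESC-named CTCF summit at 61.6%, against 54.5, 45.6 and 45.8% of all genes. HFFc6 CTCF summits were split between the 1 kb before the start, 39.8%, and the 1 kb after it, 43.1%. They were split over all genes too, at 34.4 and 30.8%. In the second kb of the gene the 4 lists had 3.7 to 5.09% of the genes, against 7.66 to 11.8% of all genes.

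The second comparison concerned the gene bodies more than 1 kb from both ends, which held few regions. Densities are per 100 kb of summed full gene length, gene ends included, with overlapping genes each counted in full. HFFc6 ATAC had 124 regions in these bodies, 1.73 per 100 kb against 5.48 over all protein-coding genes, and H1 ATAC 135, 1.88 against 6.01. HFFc6 CTCF had 70 regions, 0.975 per 100 kb against 2.92, and the hESC-named list 140, 1.95 against 3.44. Zinc finger genes on other chromosomes had 4.36, 5.59, 2.42 and 2.77 per 100 kb in the 4 lists, and the other genes of chromosome 19 had 4.43, 5.76, 4.82 and 5.09. The chromosome 19 zinc finger genes were thus the lowest of the 4 gene sets in each list.

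**Figure D4:**
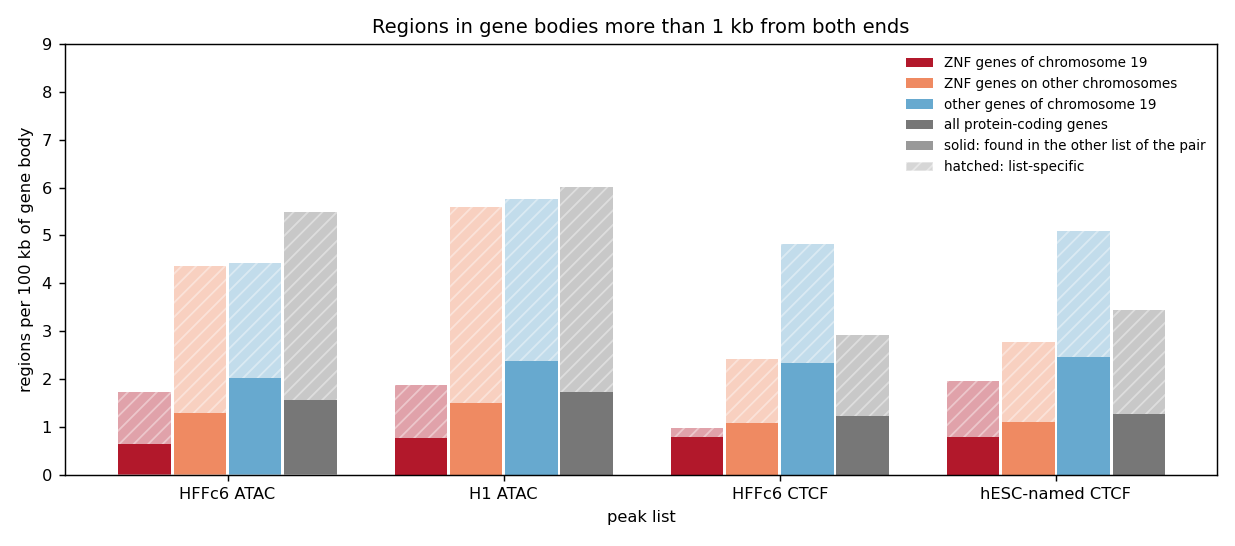
Regions in gene bodies more than 1 kb from both ends, per 100 kb of summed full gene length, for 4 gene sets in the 4 lists. Solid parts are regions found in the other list of the same assay and hatched parts are list-specific. ZNF genes of chromosome 19 have 0.975 to 1.95 regions per 100 kb, the lowest bar in each list, and only 0.195 HFFc6-specific CTCF regions per 100 kb.

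No HFFc6 ATAC region lay in the rest of the body for 166 genes (67.5%; background 41.4%), no H1 ATAC region for 171 (69.5%; background 41.7%), no HFFc6 CTCF region for 189 (76.8%; background 48.3%) and no hESC-named CTCF region for 167 (67.9%; background 43.9%). The gap was also present at matched length. Among 122 genes between the quartiles of 15.4 and 33.3 kb the shares were 72.1, 73, 82 and 74.6%, against 35.1, 39.5, 45.2 and 42.4% of the 4009 protein-coding genes in that range. Among 85 zinc finger genes elsewhere in that range they were 57.6% (47 to 67.6), 64.7% (54.1 to 74), 65.9 and 65.9% (each 55.3 to 75.1). The intervals for the chromosome 19 genes were 63.6 to 79.3, 64.5 to 80, 74.2 to 87.8 and 66.2 to 81.5%, and overlap these.

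Regions in the rest of the body were mostly specific to 1 list, except for HFFc6 CTCF. Found in the other list were 37.1% (29.1 to 45.9) of HFFc6 ATAC regions, against 28.4% at all protein-coding genes, and 40.7% (32.8 to 49.2) of H1 ATAC regions, against 28.8%. For hESC-named CTCF the share was 40.7% (32.9 to 49), against 36.8%. Of the 70 HFFc6 CTCF regions, 80% (69.2 to 87.7) were found in the hESC-named list, against 41.9% at all protein-coding genes and 44.5% (39.3 to 49.9) at zinc finger genes elsewhere. Regions in the rest of the body include many that cover a promoter window lying away from the annotated ends. HFFc6 CTCF regions found in both CTCF lists did so at many genes. Among these were ZNF558, ZNF563, ZNF442, ZNF799, ZNF749, ZNF846, ZNF43, ZNF567, ZNF420, ZNF875 and ZNF83. HFFc6-specific ones did so only at ZNF880 and ZNF331. The 80% is therefore in large part a share of promoter regions. Shares without such promoter regions were not computed. The 14 HFFc6-specific CTCF regions all overlapped HFFc6 ATAC, against 85.6% at all protein-coding genes, and 1 of them (7.14%, against 14.9%) overlapped H1 ATAC. Of the 83 regions specific to the hESC-named list, 42 (50.6%, against 61.9%) overlapped H1 ATAC, 5 (6.02%, against 13.4%) HFFc6 ATAC and 37 (44.6%, against 34.8%) neither.

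Per gene, HFFc6-only ATAC regions outnumbered H1-only ones in the rest of the body at 40 genes (16.3%; background 30.9%), and the reverse held at 31 (12.6%; background 24.6%), or at 19 with regions of −log10 q of at least 10 only. Neither kind was present at 172 genes (69.9%), against 37.5% of all protein-coding genes. For CTCF, 11 genes (4.47%; background 21.3%) had more HFFc6-only regions and 41 (16.7%; background 26.8%) more regions of the hESC-named list alone.

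ZNF536, a repressor of neuronal differentiation that lies outside the 10 groups and is 487995 bp long, held the most. Its body had 10 HFFc6 ATAC regions, 6 of them absent from H1, and 30 H1 ATAC regions, 26 of them absent from HFFc6. It had 5 HFFc6 CTCF regions, all found in the hESC-named list, and 28 hESC-named regions, of which 23 were specific. Without ZNF536 the other genes had 114 ATAC regions of HFFc6 there, 63.2% of them list-specific, and 105 of H1, 51.4% of them specific. Their CTCF regions there numbered 65 for HFFc6, 21.5% specific, and 112 in the hESC-named list, 53.6% specific.

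ZNF254 followed, with 6 HFFc6-only and 4 H1-only ATAC regions. The strongest of its line-specific regions was in HFFc6 (chr19:24054022-24055070), with a fold of 16.7, above 95.5% of its list, and it overlapped HFFc6 CTCF with a fold of 10.5 and no H1 ATAC or hESC-named CTCF region. ZNF91 had 5 HFFc6-only ATAC regions, but their folds were 2.13 to 3.74, and 1 H1-only region, at 6.33. ZNF714 had 4 HFFc6-only regions and 0 H1-only ones, and ZNF577, ZNF83 and ZNF331 had 3 HFFc6-only regions each. On the H1 side, ZNF160, a repressor of TLR4, had 4 H1-only and 0 HFFc6-only regions, and ZNF578 and ZNF610 had 3 and 0. ZNF541, a germ cell gene, had 3 against 1. ZNF578 is the gene whose weak end region was in HFFc6 alone, so its end and its body pointed to different lists.

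ZNF331, an imprinted gene with several starts, had the most HFFc6 CTCF regions of any of these genes, 6, all in the rest of its body. Of these, 4 were found in the hESC-named list. At 3 of those 4 both lines had ATAC as well, and the strongest lay at chr19:53520592-53521287 with a CTCF fold of 15.1, HFFc6 ATAC fold of 17.7 and H1 ATAC fold of 14.4. The pair specific to HFFc6, with CTCF folds of 9.75 and 8.55, lay in HFFc6-only ATAC regions with folds of 15.4 and 10.8. The second of these covers promoter windows of ZNF331 that the H1 list left uncovered. ZNF507 had 5 HFFc6 CTCF regions, and ZNF69 and ZNF808 had 6 each in the hESC-named list.

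Promoter windows gave a sharper count than gene ends. Among the 216 genes, at least 1 window was covered by ATAC in both lists for 194 (89.8%, 85.1 to 93.2; background 66.6%), in HFFc6 alone for 8 (3.7%; background 5.23%), in H1 alone for 7 (3.24%; background 7.56%) and in neither for 7 (3.24%; background 20.6%). For CTCF the counts were 180 in both lists (83.3%; background 55%), 19 in HFFc6 alone (8.8%; background 10.2%), 6 in the hESC-named list alone (2.78%; background 6.74%) and 11 in neither (5.09%; background 28.1%).

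The promoters were CpG-rich but no more so than others. Their 268 windows of 300 bases had a median of 20 CpG dinucleotides, against 21 over all 22132 windows, and a median GC content of 60 against 62.3%. Both lines covered 225 of the 268 windows (84%; background 59.2%), HFFc6 alone 15 (5.6%; background 8.45%), H1 alone 9 (3.36%; background 8.34%) and neither 19 (7.09%; background 24%). Windows covered in both lines had a median of 21 CpG (8 to 49), those of HFFc6 alone 16 (10 to 34), those of H1 alone 14 (5 to 34) and uncovered ones 9 (2 to 49). The ranges overlap. Over all protein-coding genes the medians were 27, 10, 14 and 4, so windows of the chromosome 19 genes held fewer CpG than windows in general where both lines covered them, more where HFFc6 alone or neither did, and the same where H1 alone did. ZNF541 had 49 CpG with no ATAC region, the most of any uncovered window here, and ZNF404 had 2.

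**Figure D5:**
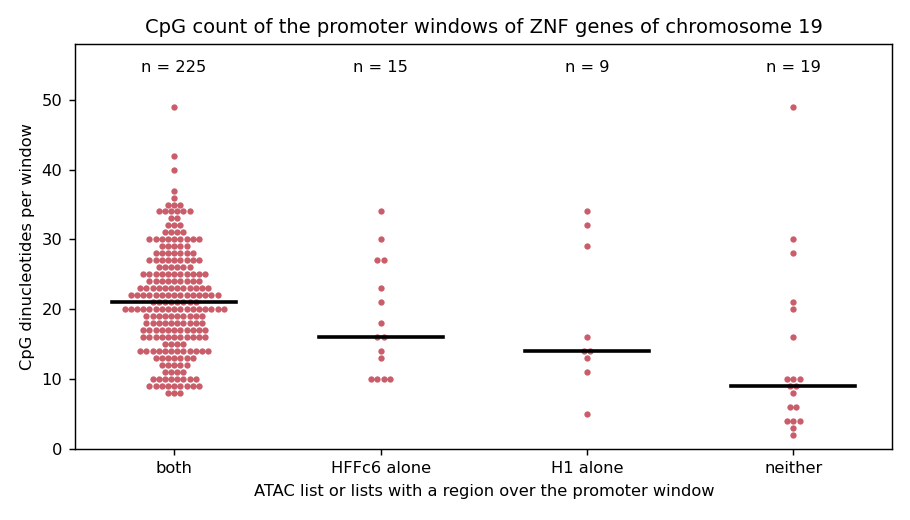
CpG dinucleotides in each of the 268 promoter windows (300 bases) of ZNF genes of chromosome 19, by the ATAC lists with a region over the window. Points are windows, black bars are medians (21, 16, 14 and 9), and the classes overlap.

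Of the short words searched, a CTCF core and the SP and KLF word came closest, as a ratio, to their share in all promoters. All 6 words had a higher share here than over all windows. The SP and KLF word was in 64.9% of windows against 56.3% over all windows, a CTCF core in 36.6 against 34.5%, the YY1 word in 5.22 against 3.54%, the CRE word in 3.73 against 2.26%, the NRF1 word in 2.99 against 1.5%, and the ZNF143 word in 1.12 against 0.316%. Windows covered by ATAC in both lines were more frequent here (84%, background 59.2%). Among those windows the SP and KLF word stood in 66.7 against 72.7%, a CTCF core in 39.1% of either set, and the remaining words were higher here. Windows of other chromosome 19 genes held the SP and KLF word in 65.9% and a CTCF core in 41.3%. The CRE, NRF1 and ZNF143 words rest on only 10, 8 and 3 of the 268 windows. Both strands were searched. HFFc6 CTCF covered 86.9% of the windows (background 59.5%) and hESC-named CTCF 81% (background 54%), while the CTCF core words stood in 36.6%. Among windows covered by ATAC in both lines, CTCF coverage was 97.8 and 91.6% here, against 91 and 81.2% over all genes. A word describes the letters in the window, and its absence says nothing about the factor.

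The runs shared by the printed promoters, which were taken from those sequences and are given as a description, were each in at most 0.583% of all windows. AACTACATTACC was in 13 of 22132 windows, of which 12 belong to zinc finger genes of chromosome 19 and 11 of those to group 10. Of the 12, 4 were covered by ATAC in H1 alone (ZNF154, ZNF587B, ZNF814 and ZNF418), out of 9 such windows in all. The other 8, among them ZNF530, ZNF586, ZNF587, ZNF749 and ZNF416, were covered in both lines. AGCGGAAGTGACGTCAG was found at ZNF121, ZNF561 and ZNF562 and in no other window. The CRE and YY1 words stood together in 26 windows over all genes.

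Of the runs from group 4, GTCCAATCAG was in 83 windows, 34 of them of zinc finger genes of chromosome 19 and 24 of those in group 4. Of these 34, 28 were covered in both lines, ZNF257 and ZNF726 in HFFc6 alone, and 4 in neither. GGCTTCCGGG was in 129 windows, 24 of them of these genes. Of the 24, 17 were covered in both lines, ZNF208, ZNF492 and ZNF723 in neither, and ZNF257, ZNF726, ZNF528 and ZNF578 in HFFc6 alone, out of 15 such windows. CTTTGTCTCT was in 52 windows, 19 of them of these genes and all 19 in group 4. Genes that share a run were thus found in different ATAC classes.

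The genes of the corepressor pathway were compared as background. Of 18 genes for KRAB cofactors, 16 had ATAC (background 70.5%) and 16 CTCF (background 61%) at an end in both lists of the assay. Among them were TRIM28, which the KRAB domain recruits, SETDB1, and CBX5, which encodes HP1 alpha. UHRF1, which guides maintenance DNA methylation, had neither in any list at its ends, and ZFP57, which protects imprinted methylation, had hESC-named CTCF alone. Taking 21 other zinc finger genes of chromosome 19 with names outside the ZNF series, 12 had ATAC at an end in both lists (background 70.5%). ATAC was in H1 alone at 3 (background 8.29%), namely KLF1, ZIK1 and ZSCAN1. It was in neither at 6 (background 15.7%), among them PEG3 and ZIM2, which are imprinted.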

How the data were processed

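The values came from 4 deposited peak lists. The build is hg38 and the tools are BWA, MACS2 and bedtools, per the submitters' processing notes; versions, filters and the handling of replicates are not stated. For each peak the authors deposited a score, which was not used, a fold enrichment (a ratio to background), a −log10 q-value and a summit position. All libraries of a group name the same list, for 3 of the lists, and titles of the Cut&Tag libraries begin with HFF1 while the cell line label, used here, is HFFc6. Whether separate cultures were used, and the meaning of the R and T labels of the 8 HFFc6 ATAC libraries, are not stated.

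Regions on chromosomes 1 to 22 and X were assigned to a gene where they overlapped its body plus 1 kb on each side. They were called end regions within 1 kb of an end and otherwise regions in the rest of the body. Regions of 2 lists that shared 1 bp or more counted as found in both, and other regions as list-specific. Counts over the genes are set beside the same count over all 19974 protein-coding genes. The RefSeq gene table gives no strand, so strand came from the promoter table. Identity came from global pairwise alignment with Biopython 1.88. Python 3.11.15, pandas 2.3.3 and matplotlib 3.10.9 were used. The overlap rules were tested on simulated data with 0 disagreements over 300 genes. The members, gene lists, motif words and naming rule were chosen with earlier results of these data known. The text names genes with an ATAC end region in 1 line alone or in neither, those with the highest end fold and the most list-specific or CTCF regions, and a set of examples. Planned counts of fingers and KRAB domains were not used here.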

Additional observations from a re-analysis of the deposited data

How the results depend on the processing

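Each list is one call with no value per library, so depth is unknown, leaving out a library could not be tried, and results were recomputed under other rules for regions and genes. No paired analysis was possible because the lists hold no values per library. Of 158 values under 9 alternatives, 142 stayed within 1.5 times the count, or within the Wilson interval of the share, and 16 did not; the cause was not tested. With regions of −log10 q of at least 10 only, HFFc6 CTCF alone at an end was found at 35 genes and hESC-named CTCF alone at 18, and 19 genes had more H1-only ATAC regions in the rest of the body. The same limit gave 95.3% of H1 ATAC end regions and 50% of H1 ATAC regions in the rest of the body found in the HFFc6 list, and, for CTCF, 81.1% of HFFc6 end regions present in the hESC-named one and 73.7% of hESC-named CTCF regions in HFFc6 ATAC. With 500 bp at a gene end, 95.3% of H1 ATAC end regions were found in the HFFc6 list, and with regions cut to 250 bp on each side of the summit, 80.6%. With 2 kb at an end, 6 genes were in H1 alone for ATAC. Without genes that overlap another gene, 8 of 183 were in HFFc6 alone for ATAC and 7 of 183 in the hESC-named list alone for CTCF, against 13 and 11 of 246. The limit for counts compares raw numbers, so a setting with fewer genes can lower a count by that alone. With promoter windows, chosen after seeing the data, 8 of 216 genes were in HFFc6 ATAC alone and 7 in neither, and 6 were in hESC-named CTCF alone and 11 in neither. Equal numbers of regions, a 50% overlap and leaving out ZNF536, the last chosen after seeing the data, moved no value past these limits.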
